A study of Mus musculus with 4 samples.

Results

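The genes described here lie near the end of mouse chromosome 11, away from the centromere, and they are 49 of the 53379 genes in the deposited tables. They were picked by symbol from about the last 5 Mb of the chromosome, with the values of PD800 and PD100 cells known. The differences between PD800 and PD100 given for these genes and for their neighbours are therefore a description, and nothing rests on a test of them. In the GENCODE M21 annotation of GRCm38 (mm10), the 49 genes run from *Tbc1d16*, which begins at 119143045, to *Metrnl*, which ends at 121716306. All of them thus lie in the last 2.83 Mb before the last annotated base of the chromosome, at 121970685. Of the 49 genes, 48 are protein coding, and *2810410L24Rik* is annotated as a processed transcript.

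The RNA came from DKO741, a mouse embryonic stem cell line made from E14 cells by targeting both alleles of *Terc*, which encodes the RNA template of telomerase, with the construct TR-10. The PGK-neo cassette left by the first targeting was removed with an adenovirus carrying Cre before the second allele was targeted, and selection used G418 and ganciclovir. PD100 cells, harvested at population doubling 100, are pre-ALT cells, and PD800 cells, harvested at population doubling 800, are survivors that maintain telomeres by the alternative lengthening of telomeres (ALT), with 2 libraries of each and no further treatment named. The labels also call these time points passages. Both groups lack *Terc* and come from 1 recovered line, so that a difference between them cannot be told apart from one particular to DKO741. The stocks were kept on mouse embryonic fibroblast feeders, and the cells used for RNA were grown without them.

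The expected counts, which are estimated numbers of read pairs per gene, summed to 38492149 and 32454121 in PD100 replicates 1 and 2 and to 37460820 and 33362106 in PD800 replicates 1 and 2. Levels are given as CPM, counts scaled to the same library size, to compare 1 gene between libraries, and as TPM, which is also scaled to gene length, to compare genes. A floor of 3 counts corresponded to between 0.0743 and 0.0934 CPM, which covers counting error only. Standard errors were derived from edgeR's quasi-likelihood test on 2 libraries per group (n = 2). That test shares information on variance across all tested genes, so they are not the replicate spread of a single gene. For *Terc* itself, 1 count was recorded in PD100 replicate 1 and 0 counts in each remaining library.

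The label of embryonic stem cells was checked against marker genes. All 10 stem cell markers were detected in every library, and their summed level was 2050 and 2410 CPM in the PD100 libraries and 3900 and 4010 CPM in the PD800 libraries, with *Dppa5a* at the highest mean TPM over the 4 libraries. *Nanog*, *Klf4*, *Esrrb* and *Tfcp2l1* were called higher in PD800 cells, where a call means an adjusted p under 0.01 from edgeR's quasi-likelihood test and a fold change over 2. The 10 markers of primitive endoderm, an early lineage that stem cell cultures can form, were all called lower in PD800 cells. Their sum was 2370 and 2610 CPM in the PD100 libraries and 239 and 250 CPM in the PD800 libraries. *Sparc* had the highest mean TPM of them, and the counts of *Foxa2* in PD800 cells did not exceed the floor. Of 12 fibroblast markers, 11 were tested and 5 were called lower, with sums of 72.6 and 97.7 CPM in PD100 cells and 32.2 and 32.7 CPM in PD800 cells. *Thy1* had the highest mean TPM of these, and *Lum* lay at or under the floor in all libraries. These marker levels moved with the groups compared for the chromosome 11 genes, and their part in the results below was not tested. In bulk RNA, fewer cells of a type and less RNA per cell cannot be told apart. From single-cell RNA sequencing, the paper reports that PD100 and PD800 cells formed distinct populations, each of high homogeneity. Those single-cell data were not used here.

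Mouse chromosomes carry the centromere close to an end, so that the genes farthest from it lie next to the telomere of the long arm. Without telomerase, telomeres shorten with each round of replication, and rare cells that keep dividing maintain them by recombination. The genes at this end of chromosome 11 share a position and not a pathway, and many of them serve every cell, in translation, protein degradation, lipid synthesis, vesicle traffic and the cytoskeleton.

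Most of the genes had higher RNA levels in PD800 cells than in PD100 cells, and the differences were of similar size from *Chmp6* onwards, apart from a few genes named further on. Of the 49 genes, 48 passed the expression filter, and *Tspan10*, a tetraspanin, did not. Among the 48, 42 reached the filter's level in both groups and 6 (*Card14*, *2810410L24Rik*, *Fscn2*, *Pde6g*, *Npb* and *Rab40b*) in PD800 cells only, which ties their passing to a high PD800 value. In PD800 cells, 32 were called higher, 1 was called lower and 15 were called neither way. Among all 19148 tested genes, 6.28% were called higher and 8.81% lower. The median log2 fold change of the 48 genes was 1.42, and that of all tested genes was 0.01. Both PD800 libraries lay above both PD100 libraries for 43 of the 48 genes and below them for 2, and the groups overlapped for 3. Over all tested genes, 37.4% lay above and 36.3% below in this way. Of the 42 genes at the filter's level in both groups, 30 were called higher and 1 lower, with a median of 1.41, and 37 lay above and 2 below.

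The size of the difference had a step along the chromosome, between *Rptor* and *Chmp6*. The position of the step was chosen after the values had been seen. The 8 genes from *Tbc1d16* to *Rptor* had log2 fold changes between -0.78 and 1.39, with a median of 0.12, and edgeR called none of them. At an unadjusted p under 0.05, edgeR counted 2 of these 8 as higher and 1 as lower, beside 26.4% and 27.0% of all tested genes, and DESeq2 and limma also called 0. The next 40 genes, from *Chmp6* to *B3gntl1*, had log2 fold changes from -0.03 to 3.74 over those tested, *Npb* aside, which had 3 counts in each PD100 library. The median over the 39 tested was 1.55, with quartiles of 1.37 and 1.83. All 32 genes called higher lie among these 39, and 31 of the 39 had a log2 fold change from 1 to 2, a range that held 7.31% of all tested genes. The stretch between the end of *Rptor* and the start of *Chmp6* is 13864 bases long, from 119899577 to 119913440, and *Chmp6* begins 2057 kb before the last annotated base. *Metrnl*, the last of the 49, ends 254 kb before that base and went the other way, with a log2 fold change of -2.31.

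**Figure D1:**
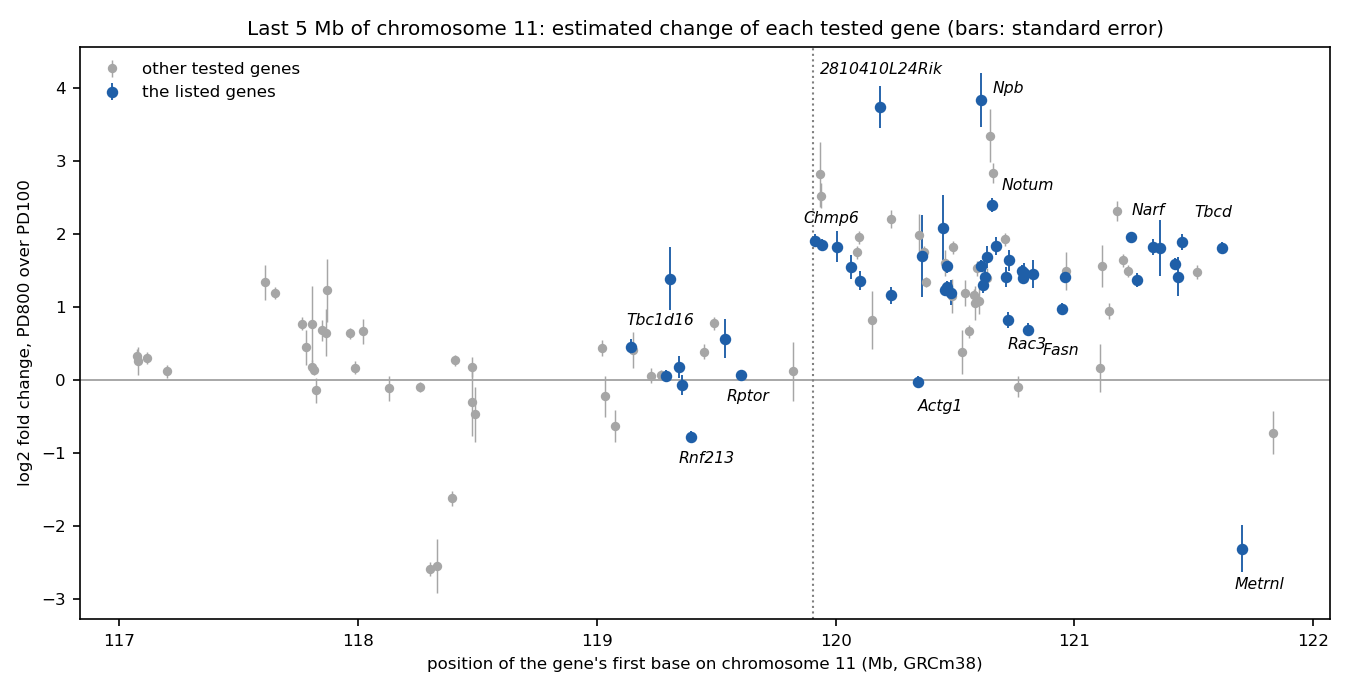
Log2 fold change (vertical axis, PD800 over PD100) of each tested gene in the last 5 Mb of chromosome 11. The horizontal axis gives the position of its first base in Mb of GRCm38. Bars give the standard error from edgeR's test on 2 libraries per group, with variance information shared across genes. Blue points are the 48 tested genes of the 49 described here, grey points are other tested genes, and the dotted line marks the gap between Rptor and Chmp6, to the right of which the blue points have a median of 1.55 up to B3gntl1, while Metrnl lies at -2.31.

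The summed level showed the same contrast. The 8 genes from *Tbc1d16* to *Rptor* summed to 782 and 796 CPM in the PD100 libraries and to 610 and 613 CPM in the PD800 libraries, and *Rnf213* made up much of this sum. The 40 genes from *Chmp6* to *B3gntl1* summed to 3370 and 3570 CPM in PD100 cells and to 6030 and 6160 CPM in PD800 cells, a ratio of 1.75. *Actg1* alone held a large part of the latter sum at a level that hardly differed between groups. Without *Actg1*, the sums were 1700 and 1860 CPM in PD100 cells and 4380 and 4490 CPM in PD800 cells, a ratio of 2.49.

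The genes differed widely in abundance. On the TPM scale, the mean level over the 4 libraries ran from 0.0625 for *Card14* to 712 for *Actg1*, with a median of 13.6 over the 48 tested genes. *Actg1*, *Eif4a3* (141 TPM) and *Gps1* (111 TPM) were the most abundant. For 15 of the 49 genes the expected counts were not whole numbers, so that reads were shared with other genes, and 20 of them overlap another annotated gene. Whether the counting used strand is not given in the sources used here, so reads of genes that overlap on opposite strands may not be separated. These include *Notum* with *Notumos* and *Myadml2os*, *Tbcd* with *B3gntl1*, and *Card14* with *Sgsh*. *Sirt7* and *Mafg* overlap on the same strand, where the use of strand cannot separate their reads.

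Of 7 genes of membrane traffic and autophagy, all tested, 5 were called higher, and their log2 fold changes had a median of 1.81. Counts of calls in this and the following roles stand beside 6.28% called higher and 8.81% called lower among all tested genes. Groups without overlap are common as well, with 37.4% of all tested genes above and 36.3% below in PD800 cells. *Chmp6*, a subunit of the ESCRT-III complex that cuts membranes from the inside, had 20.5 and 23.1 CPM in the PD100 libraries and 80.4 and 83.4 CPM in the PD800 libraries (log2 fold change 1.91, standard error 0.09). Both PD800 libraries lay above both PD100 libraries. *Chmp6* is the first gene past the step because the step was placed after these values had been seen. *Aspscr1*, which tethers the glucose transporter GLUT4 inside cells, was measured at 49.7 and 61.3 CPM in PD100 cells and at 194 and 204 CPM in PD800 cells (log2 fold change 1.84, standard error 0.12). Its PD100 libraries differed from each other by far less than from either PD800 library. *Tbc1d16*, a GTPase-activating protein for Rab proteins and the first of the 49 along the chromosome, had 22.4 and 25.9 CPM in PD100 cells and 33.7 and 32.8 CPM in PD800 cells (log2 fold change 0.46, standard error 0.10). The PD800 libraries were the higher ones here too, without overlap, and the difference was smaller. For *Tbc1d16*, limma gave 0.14 on log2(TPM + 1) and 0.18 on log2(TPM + 0.1). The others of this group were *Hgs*, which sorts ubiquitinated receptors on endosomes (1.27), the small GTPases *Arl16* (1.56) and *Rab40b* (1.81), and *Wdr45b*, which binds phosphoinositides in autophagy (1.82), given by their log2 fold changes. *Rab40b* was not called, except by limma on log2(TPM + 0.1), at 1.17, without the expression filter and with a replicate block.

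Of 8 genes of the cytoskeleton and centrosome, 5 were called higher, with a median log2 fold change of 1.5. *Tbcd*, a cofactor that folds beta-tubulin and joins it to alpha-tubulin, had 88.4 and 105 CPM in PD100 cells and 347 and 369 CPM in PD800 cells (log2 fold change 1.89, standard error 0.11). *Baiap2*, which links Rac signalling to actin at membrane protrusions, had 27.1 and 28.4 CPM in PD100 cells and 99.5 and 100 CPM in PD800 cells (log2 fold change 1.85, standard error 0.08). For both genes the PD800 libraries were the high ones and the replicates lay close together. *Actg1*, which encodes cytoplasmic gamma-actin, differed from its neighbours on this side of the step. It had 1670 and 1720 CPM in PD100 cells and 1640 and 1670 CPM in PD800 cells (log2 fold change -0.03, standard error 0.08). Its groups overlapped, and part of its reads were shared with other genes. *Rac3*, a GTPase of the Rac family, was above in PD800 cells by a log2 fold change of 0.83, below the fold needed for a call. *Cep131* (1.55) and *Lrrc45* (1.41), proteins of the centrosome, and *Ccdc57* (1.45) were called higher, and *Fscn2*, an actin-bundling protein with few counts, had 1.70 and was not called, except without PD100 replicate 1 (3.07) and without the expression filter.

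Of 7 metabolic enzymes, 5 were called higher, with a median log2 fold change of 1.56. *Fasn*, the fatty acid synthase, had 480 and 529 CPM in PD100 cells and 819 and 805 CPM in PD800 cells (log2 fold change 0.69, standard error 0.09). The groups did not overlap, and the difference was among the smaller ones past the step. *Pycr1*, a mitochondrial enzyme of proline synthesis, had 5.30 and 4.43 CPM in PD100 cells and 17.3 and 14.2 CPM in PD800 cells (log2 fold change 1.69, standard error 0.15). *Sgsh*, a lysosomal sulfatase that breaks down heparan sulfate, lies on the other side of the step and had 5.17 and 4.37 CPM in PD100 cells and 5.18 and 5.67 CPM in PD800 cells (log2 fold change 0.18, standard error 0.15), and the sign was the opposite by limma on log2(TPM + 1), at -0.17, and on log2(TPM + 0.1), at -0.32. *Pycr1* was thus high in both PD800 libraries, while the *Sgsh* levels nearly met between PD100 replicate 1 and PD800 replicate 1. The log2 fold change was 1.56 for *Pcyt2*, an enzyme of phosphatidylethanolamine synthesis, 1.64 for *Dcxr*, a xylulose reductase, and 1.59 and 1.42 for the kinases *Fn3krp* and *Fn3k*, which act on glycated proteins.

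The 7 genes of signalling and protein degradation lie on both sides of the step, and 3 of them were called higher. *Gps1*, a subunit of the COP9 signalosome that removes NEDD8 from cullin ubiquitin ligases, had 145 and 139 CPM in PD100 cells and 370 and 378 CPM in PD800 cells (log2 fold change 1.4, standard error 0.08). *Rptor*, the subunit of mTOR complex 1 that binds its substrates, had 69.2 and 69.3 CPM in PD100 cells and 74.2 and 70.7 CPM in PD800 cells (log2 fold change 0.07, standard error 0.07), and the sign was the opposite by limma on log2(TPM + 1), at -0.27, and on log2(TPM + 0.1), at -0.29. *Rnf213*, a large ubiquitin ligase, had 480 and 478 CPM in PD100 cells and 282 and 277 CPM in PD800 cells (log2 fold change -0.78, standard error 0.08). PD800 libraries were thus high for *Gps1* and low for *Rnf213*, and for *Rptor* they lay slightly above the PD100 libraries in CPM. *Pde6g*, the inhibitory subunit of a photoreceptor phosphodiesterase, was barely detected, with 0.124 and 0.180 CPM in PD100 cells and 0.501 and 0.809 CPM in PD800 cells (log2 fold change 2.09, standard error 0.45). It did not overlap between groups and was not called, except without PD100 replicate 2 (log2 fold change 2.34), with a replicate block and without the expression filter. Its log2 fold change was 1.72 without PD800 replicate 2, and by limma 0.27 with a TPM pseudocount of 1 and 1.01 with 0.1. *Csnk1d*, a casein kinase that acts on clock proteins (1.41), and *Aatk*, a kinase named for apoptosis (1.83), were called higher, and *Card14*, a scaffold of NF-kappa-B signalling with few counts (1.39), was not.

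All 4 genes of transcription and chromatin were called higher, with log2 fold changes between 1.16 and 1.42. *Mafg*, a small Maf protein that binds DNA together with CNC factors, had 52.7 and 61.5 CPM in PD100 cells and 150 and 156 CPM in PD800 cells (log2 fold change 1.42, standard error 0.10). The others were *Foxk2*, a forkhead factor (1.37), *Sirt7*, a nucleolar deacetylase (1.3), and *Bahcc1*, a chromatin protein (1.16). In each of these 4 genes the PD800 libraries were the higher ones, without overlap, as in 37.4% of all tested genes.

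Of 3 genes of RNA processing and translation, 2 were called higher. *Eif4a3*, the helicase of the exon junction complex, had 200 and 212 CPM in PD100 cells and 208 and 221 CPM in PD800 cells (log2 fold change 0.06, standard error 0.08), and the sign was the opposite by limma on log2(TPM + 1), at -0.12, and on log2(TPM + 0.1), at -0.13. *Dus1l*, which makes dihydrouridine in transfer RNA, had 84.4 and 107 CPM in PD100 cells and 252 and 278 CPM in PD800 cells (log2 fold change 1.47, standard error 0.13). The groups overlapped for *Eif4a3*, which lies before the step, and not for *Dus1l*. *Mrpl12*, a protein of the mitochondrial ribosome, had a log2 fold change of 1.20.

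Of the 3 membrane transporters, *Slc38a10* was called higher. This amino acid transporter had 92.8 and 117 CPM in PD100 cells and 259 and 280 CPM in PD800 cells (log2 fold change 1.36, standard error 0.13). *Slc16a3*, which exports lactate, had 101 and 97.1 CPM in PD100 cells and 190 and 201 CPM in PD800 cells (log2 fold change 0.98, standard error 0.08). Both were high in the PD800 libraries without overlap, and *Slc16a3* lay just under the fold needed for a call, which it passed without PD100 replicate 1 (1.01) or without PD800 replicate 1 (1.02). *Slc26a11*, a sulfate transporter before the step, had a log2 fold change of -0.07 and overlapping groups.

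Of the 7 secreted, surface and Golgi proteins, 6 were tested, and 4 were called higher and 1 lower. *Notum*, a secreted enzyme that inactivates Wnt proteins by removing their lipid, had 10.5 and 11.7 CPM in PD100 cells and 56.8 and 60.5 CPM in PD800 cells (log2 fold change 2.40, standard error 0.09). Where the mean over libraries reached 5 CPM, as in 37 genes, it had the highest fold change, with both PD800 libraries far above the PD100 libraries. *Npb*, the precursor of the neuropeptide B, had 3 counts in each PD100 library and 47 and 36 in the PD800 libraries, a ratio of 15.0 with a 95% counting interval from 6.6 to 42.0. *Metrnl*, a secreted hormone-like protein, had 2.43 CPM in both PD100 libraries and 0.334 and 0.654 CPM in the PD800 libraries (log2 fold change -2.31, standard error 0.32). *Npb* was thus high and *Metrnl* low in both PD800 libraries. By limma on log2(TPM + 1), the log2 fold change was 1.4 for *Npb* and -1.02 for *Metrnl*. *Tspan10* had expected counts of 0 and 4 in PD100 cells and of 4 and 4 in PD800 cells, too few for a comparison. *Rfng*, a fringe enzyme that modifies Notch (1.5), and *B3gntl1*, a glycosyltransferase (1.81), were called higher, and *Nptx1*, a neuronal pentraxin before the step, had a log2 fold change of 0.57 and was not called.

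The 3 remaining genes are little characterised, and all of them were called higher. *Narf*, which binds prelamin A, had 23.7 and 23.2 CPM in PD100 cells and 91.2 and 91.8 CPM in PD800 cells (log2 fold change 1.96, standard error 0.07). *Ccdc137* had 24.5 and 26.6 CPM in PD100 cells and 59.3 and 61.8 CPM in PD800 cells (log2 fold change 1.24, standard error 0.08). The non-coding *2810410L24Rik* had 0.272 and 0.180 CPM in PD100 cells and 2.84 and 3.39 CPM in PD800 cells (log2 fold change 3.74, standard error 0.29). In all 3 the PD800 libraries were the high ones, and the non-coding gene was scarce in PD100 cells. By limma on log2(TPM + 1), *Ccdc137* lost its call, at 0.96, and *2810410L24Rik* was at 1.34.

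**Figure D2:**
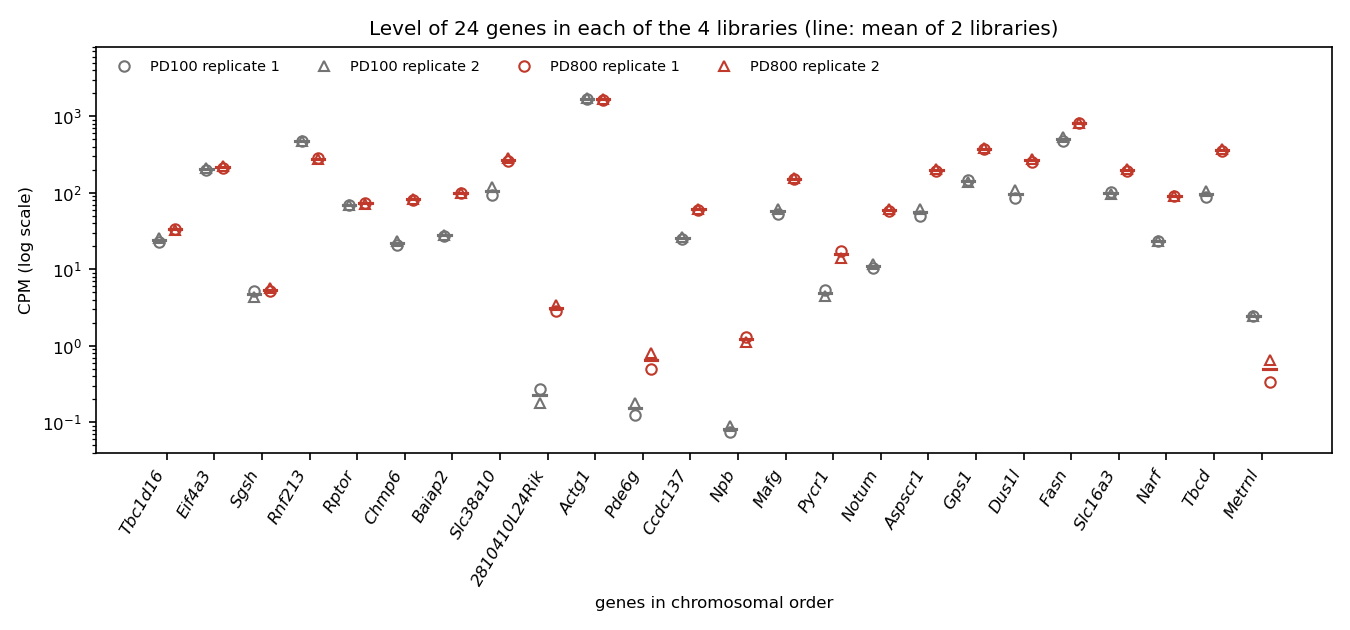
CPM on a log scale (vertical axis) of 24 of the genes in chromosomal order, in each PD100 library (grey) and PD800 library (red), with circles for replicate 1, triangles for replicate 2 and lines for the mean of 2 libraries. The PD800 replicates of the scarce genes Pde6g and Metrnl lie farther apart than most, and from Chmp6 to Tbcd the red points lie above the grey ones except for Actg1, while Rnf213 and Metrnl are lower in PD800 cells.

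The other annotated genes of the same interval had similar values. Between the start of *Tbc1d16* and the last annotated base there are 83 further genes of the files. Of the 13 that begin before *Chmp6*, 6 were tested, with log2 fold changes from 0.06 to 0.78 and a median of 0.25, and edgeR, DESeq2 and limma called 0 of them, while 2 were higher and 0 lower at an unadjusted p under 0.05 from edgeR. Of the 62 that begin between the starts of *Chmp6* and *Metrnl*, 32 were tested and 25 were called higher, of which *Gm11767*, *0610009L18Rik* and *Myadml2os* did not reach the filter's level in both PD100 libraries. The remaining 29 had log2 fold changes between -0.09 and 2.84 and a median of 1.5, and 22 of them were called higher. Of those with a mean of 5 CPM or more, 18 had a fold change over 2, from 1.08 for *Anapc11* to 2.84 for *Notumos* on the log2 scale. They include *Alyref*, an adaptor for the export of messenger RNA (1.53), *Ndufaf8*, an assembly factor of mitochondrial complex I (1.96), *Cenpx*, a histone-fold protein of the centromere (1.93), and *Faap100* of the Fanconi anaemia complex (1.75). *Hmga1b* had 178 and 134 CPM in PD100 cells and 148 and 146 CPM in PD800 cells, with overlapping groups, and its reads were shared with other genes. *Ptchd3*, the gene tested nearest to the chromosome end, lies on the far side of *Metrnl* and was not called. It had 1.07 and 0.929 CPM in PD100 cells and 0.501 and 0.716 CPM in PD800 cells (log2 fold change -0.72, standard error 0.29).

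On the centromere side of *Tbc1d16*, the nearest tested genes include *Cbx8* and *Cbx2*, which encode chromobox proteins of Polycomb complexes. *Cbx2* had 22.5 and 18.5 CPM in PD100 cells and 27.8 and 27.9 CPM in PD800 cells (log2 fold change 0.44, standard error 0.11). The log2 fold change was -0.22 for *Cbx8*, and neither gene was called. Of the 62 genes between the start of the last 5 Mb and *Tbc1d16*, 30 were tested, and 2 were called higher and 3 lower, close to the 6.28% and 8.81% of all tested genes. Those called higher were *Tnrc6c* (1.19) and *2900041M22Rik* (1.34), and those called lower were *Timp2* (-2.59), *Cep295nl* (-2.55) and *Lgals3bp* (-1.62). Only 1 of these genes was called higher without PD800 replicate 1, and likewise without PD800 replicate 2, and limma on either TPM scale called 0 higher.

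Along the whole chromosome, the last 5 Mb had the highest median among the windows of that length. Of its 117 tested genes, 50.4% were called higher, with a median log2 fold change of 1.19. The other windows had medians between -0.52 and 0.49, and at most 20.0% of their genes were called higher. Before its last 5 Mb, chromosome 11 had 1333 tested genes with a median log2 fold change of -0.29, of which 2.48% were called higher and 10.8% lower. The 19 other chromosomes with at least 100 tested genes had medians between -0.45 and 0.36, and 3 of them lay below -0.29. Within the last 5 Mb, windows of 0.5 Mb with at least 5 tested genes reached a highest median of 1.61.

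**Figure D3:**
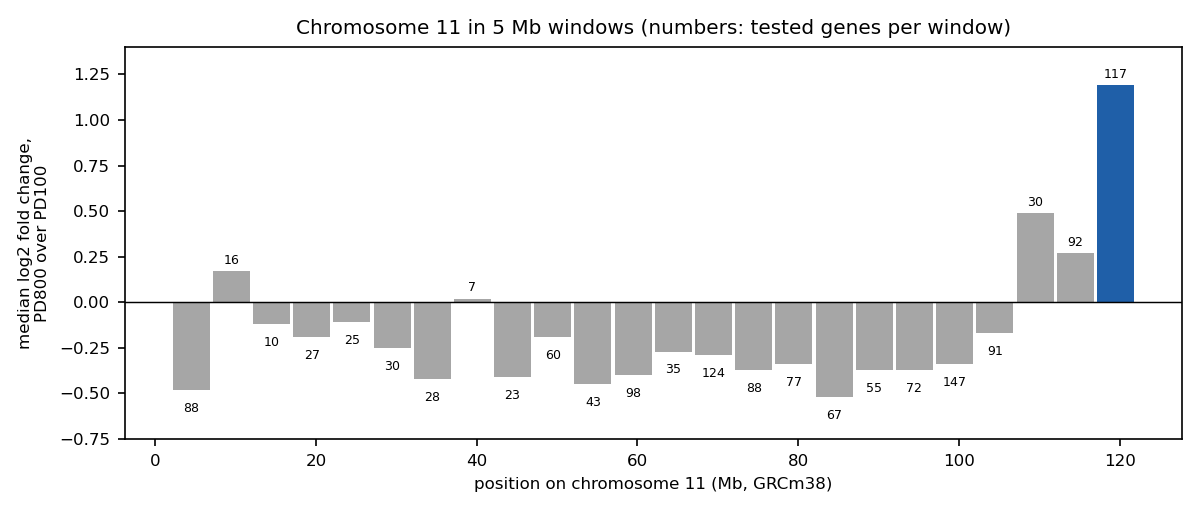
Median log2 fold change (vertical axis, PD800 over PD100) of the tested genes in each 5 Mb window of chromosome 11, starting from its far end, against position in Mb of GRCm38. Numbers give the tested genes per window, and the last window (blue, 117 genes) has a median of 1.19, while the others lie between -0.52 and 0.49.

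Genes elsewhere that work with these genes were called at shares close to those over all genes. Lists of partners for 16 complexes and pathways held 100 genes of the files, of which 98 were tested and 9 lie on chromosome 11. With edgeR's quasi-likelihood test over all genes, 4 of the 98 were called higher and 7 lower, beside 6.28% and 8.81% of all tested genes, and the median log2 fold change of the 98 was -0.06. The genes named from these lists are therefore single results and say nothing of the lists. By limma on log2(TPM + 1), 1 was called higher and 10 lower. For 10 of the lists, with 63 tested genes, edgeR called 0 genes, DESeq2 called 0 higher and 1 lower, limma called 0 higher and 2 lower on log2(TPM + 1) and 0 higher and 3 lower on log2(TPM + 0.1), and 16 were higher and 13 lower at an unadjusted p under 0.05 from edgeR. The median log2 fold change was 0.16 for mTOR complex 1, 0.18 for the COP9 signalosome, -0.07 for the ESCRT complexes and -0.06 for the tubulin cofactors, beside 0.07 for *Rptor*, 1.4 for *Gps1*, 1.91 for *Chmp6* and 1.89 for *Tbcd* (by limma on both TPM scales, *Rptor* was below 0). The other lists without a call by edgeR had medians of -0.22 (exon junction complex), -0.18 (proline synthesis), 0.17 (sirtuins), 0.05 (monocarboxylate transport), 0.25 (casein kinases 1) and -0.27 (Rac GTPases). Medians of the lists with calls were -0.39 for fatty acid synthesis (2 of 8 tested higher), 0.32 for phosphatidylethanolamine synthesis (1 of 5 higher) and -0.7 for the small Maf partners (3 of 8 lower). They were -2.09 for the actins (2 of 4 lower) and -0.91 for the fringe enzymes (1 of 3 lower). A test of the difference between these genes and their partners was not made.

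In fatty acid synthesis, *Acss2*, which makes acetyl-CoA from acetate, rose from 4.88 and 5.09 CPM to 14.0 and 14.6 CPM, a log2 fold change of 1.52 (adjusted p = 0.00017 from edgeR). *Elovl6*, which elongates fatty acids, rose from 106 and 92.8 CPM to 282 and 276 CPM, a log2 fold change of 1.49 (adjusted p = 0.000142 from edgeR). *Acaca* and *Acly*, which lie on chromosome 11 but outside its last 5 Mb and supply *Fasn* with substrate, had log2 fold changes of -0.64 and -0.51 and were not called. *Etnk1*, an ethanolamine kinase that acts before *Pcyt2*, rose by a log2 fold change of 1.25 (adjusted p = 0.000129 from edgeR), and *Sumf1*, which activates sulfatases such as *Sgsh*, by 1.3 (adjusted p = 0.000167 from edgeR). In all 4 genes both PD800 libraries were above both PD100 libraries. They were named because they were called higher, so this separation is not further support.

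Among the partners called lower were 3 of the 8 tested small Maf partners of *Mafg*. *Mafk* had 19.0 and 18.8 CPM in PD100 cells and 6.03 and 6.04 CPM in PD800 cells (log2 fold change -1.64, adjusted p = 0.000101 from edgeR). *Maff* (-1.56, adjusted p = 0.000996 from edgeR) and the CNC factor *Bach2* (-1.16, adjusted p = 0.00645 from edgeR) were lower as well, in both PD800 libraries. Of the actins, *Acta2* had 49.9 and 50.2 CPM in PD100 cells and 9.18 and 10.3 CPM in PD800 cells (log2 fold change -2.36, adjusted p = 4.88e-05 from edgeR), and *Acta1* fell by 4.27 on the same scale (adjusted p = 0.000113 from edgeR). *Actb*, the closest relative of *Actg1*, had 3540 and 3720 CPM in PD100 cells and 2050 and 2130 CPM in PD800 cells (log2 fold change -0.80), under the fold needed for a call. *Lfng*, a fringe enzyme like *Rfng*, fell by a log2 fold change of 3.33 (adjusted p = 8.27e-05 from edgeR). All 10 primitive endoderm markers and 5 of the 11 tested fibroblast markers were called lower in the same libraries. Their part in these values was not tested.

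Some of the 49 genes share a start region with a neighbour on the opposite strand. There are 10 such divergent pairs, with at most 1000 bases between the annotated starts, and in 3 of them both genes belong to the 49. *Arl16* and *Hgs* begin 28 bases apart and had log2 fold changes of 1.56 and 1.27, and *Rfng* and *Gps1* begin 65 bases apart and had 1.5 and 1.4. *Sgsh* and *Slc26a11*, which begin 21 bases apart before the step, had 0.18 (-0.17 and -0.32 by limma on log2(TPM + 1) and log2(TPM + 0.1)) and -0.07. *Actg1* and the non-coding *0610009L18Rik*, which was scarce in PD100 cells, begin 136 bases apart and had unlike values, -0.03 and 1.99.

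Promoter sequences were matched by symbol in the RefSeq table of GRCm38.p6 for 37 of the 49 genes. The 12 without an entry were *Tbc1d16*, *Card14*, *Slc26a11*, *Nptx1*, *Chmp6*, *Pde6g*, *Npb*, *Pcyt2*, *Notum*, *Csnk1d*, *Wdr45b* and *Fn3k*. Over the 250 bases before the RefSeq start, which can differ from the GENCODE start of a gene, the median GC content was 65.2% in the 37 promoters, 52.0% in all 27025 promoters and 55.2% in the 17492 promoters of protein-coding genes. The median number of CpG dinucleotides was 19 in the 37 promoters, 6 in all and 10 in those of protein-coding genes. Motifs were searched on both strands. The GC box GGGCGG was found in 70.3% of the 37 promoters, in 33.0% of all and in 42.7% of those of protein-coding genes. The letters CCAAT were in 45.9%, against 34.5% of all, the E box CACGTG in 13.5%, against 6.04%, and TATAAA in 5.41%, against 13%. The cyclic AMP response element TGACGTCA was found in 0 of the 37, against 1.6% of all promoters, and a palindromic NRF1 motif in 0, against 0.777%. A match describes the letters in the window and does not show that a factor binds there.

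Promoters are printed for a gene on each side of the step and for genes of unlike behaviour, chosen after their values were seen: *Rptor* before the step, *Cep131* and *Narf* with higher levels after it, and *Actg1* with overlapping groups. Each is the longest stretch without an annotated exon in the 250 bases before the RefSeq start, from 5′ to 3′ on the strand of the gene, with the motifs named above in capitals, and adjoining or overlapping copies of GGGCGG or its complement CCGCCC form longer runs. The positions are chr11:119602655-119602904 on the plus strand for *Rptor*, chr11:120086828-120087077 on the minus strand for *Cep131*, chr11:120348543-120348677 on the minus strand for *Actg1* and chr11:121236986-121237235 on the plus strand for *Narf*.
Rptor: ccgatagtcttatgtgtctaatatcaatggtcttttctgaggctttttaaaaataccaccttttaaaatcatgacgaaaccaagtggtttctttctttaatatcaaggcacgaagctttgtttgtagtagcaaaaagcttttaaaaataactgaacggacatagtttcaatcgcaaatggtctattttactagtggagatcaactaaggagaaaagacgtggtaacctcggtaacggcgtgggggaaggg
Cep131: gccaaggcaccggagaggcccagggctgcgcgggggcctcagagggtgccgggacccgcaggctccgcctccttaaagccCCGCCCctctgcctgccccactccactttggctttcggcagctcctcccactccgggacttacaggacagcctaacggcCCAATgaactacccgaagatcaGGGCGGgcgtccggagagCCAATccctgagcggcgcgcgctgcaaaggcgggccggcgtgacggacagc
Actg1: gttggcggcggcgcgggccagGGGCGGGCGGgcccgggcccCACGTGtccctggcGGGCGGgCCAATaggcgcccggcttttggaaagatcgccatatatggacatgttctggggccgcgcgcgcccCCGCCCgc
Narf: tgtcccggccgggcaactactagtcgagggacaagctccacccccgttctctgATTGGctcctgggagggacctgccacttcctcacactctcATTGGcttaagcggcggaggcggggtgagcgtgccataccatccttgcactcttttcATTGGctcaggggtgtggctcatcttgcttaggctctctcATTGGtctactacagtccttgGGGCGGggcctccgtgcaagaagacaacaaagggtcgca
The *Rptor* stretch holds none of the motifs and has a GC content of 37.6%. The other promoters matched before the step, those of *Eif4a3*, *Sgsh* and *Rnf213*, hold a GC box in their 250 bases. *Rptor* is thus unlike the others on its side, and the printed promoters cannot be read as a contrast across the step. *Cep131* has 70.0%, with GC boxes on both strands and copies of CCAAT, and *Narf* has 58.8%, with 4 copies of ATTGG, the complement of CCAAT, and a GC box. The *Actg1* stretch, at 76.3%, holds GC boxes, of which a pair overlap, the E box and CCAAT.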

How the data were processed

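Read pairs were aligned by the authors with STAR 2.5.3a (mm10), who deposited RSEM 1.3.0 expected counts, which divide reads that align to several genes, and TPM values, scaled by RSEM to gene length and to a common total; versions are from the submitters' processing notes. The annotation release and the use of strand are not given in the sources used here. Of the 53379 gene identifiers, 53274 were found in GENCODE M21, which gave coordinates.

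The group of a library is the population doubling in its title. Expected counts were rounded and compared with edgeR 4.0.16 in R 4.3.3 (filterByExpr with a minimum count of 10, TMM factors of 1.05 and 1.03 in PD100 and 0.960 and 0.964 in PD800, quasi-likelihood test, Benjamini-Hochberg adjustment over 19148 genes). The procedure was tested on simulated data. CPM uses TMM-scaled totals. The counting interval of *Npb* is an exact 95% interval. Replicates differed by more than sampling noise (chi-square over degrees of freedom 57.9 for PD100, 9.13 for PD800). The study calls the samples biological duplicates and the labels name no separate cultures, so p-values measure the spread between these libraries, which may be technical. With 2 libraries against 2, an exact two-sided permutation test of a gene cannot go below 0.333.

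The members and lists were chosen with earlier results of these data known. Values in every library are given for the 6 highest and 6 lowest log2 fold changes among those whose mean reached 5 CPM, the 3 highest mean TPM, the first and last tested gene, each untested gene, and 1 to 3 genes of each role (the most abundant and the most changed). Of the other genes, those of the interval with a mean of at least 5 CPM and a fold over 2, the 3 tested genes next to *Tbc1d16*, partners past the call and close relatives of named genes were candidates; *Hmga1b*, *Ptchd3*, *Acaca*, *Acly*, *0610009L18Rik* and the genes called before *Tbc1d16* were chosen after their values were seen.

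Alternatives were DESeq2 1.42.0, its size factors in edgeR, limma 3.58.1 on log2(TPM + 1) and log2(TPM + 0.1), scaling by upper quartiles, testing without a filter or with 10 counts required of all libraries, a replicate block, an adjusted p under 0.05 with no fold, leaving out libraries singly, and windows of 1 Mb. Protein sequences, strand and *Vps28*, a listed partner, were not analysed here. Some genes that these rules select, and the summary over the partner list of heparan sulfate breakdown, are not reported here.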

Additional observations from a re-analysis of the deposited data

How the results depend on the processing

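With edgeR, 32 of the genes were called higher, and the count lay between 24 (limma on log2(TPM + 1)) and 40 (adjusted p under 0.05 with no fold threshold) over the alternatives, with 31 for DESeq2 and 31 to 33 with each library left out in turn. At an adjusted p under 0.05 with no fold threshold, 2 were called lower in place of 1. Their median of 1.42 was 1.02 by limma with a TPM pseudocount of 1 and 1.14 with 0.1. On these scales the median of all tested genes was -0.12 and -0.21, so that the genes lay 1.14 and 1.35 above it. *Eif4a3*, *Sgsh* and *Rptor*, at 0.06, 0.18 and 0.07 with edgeR, were then at -0.12, -0.17 and -0.27 for the pseudocount of 1 and at -0.13, -0.32 and -0.29 for 0.1, and no other tested gene of the 49 changed sign under any alternative.

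Over all genes, 1202 were called higher and 1686 lower by edgeR, 297 and 920 by limma with a TPM pseudocount of 1, 533 and 1779 with 0.1, and 4224 and 4515 at an adjusted p under 0.05. In the same order of settings, the other genes of the interval called higher numbered 25, 13, 19 and 30. Genes before *Tbc1d16* called higher numbered 2, 0, 0 and 10, and 1 to 2 with each library left out, where the lone library of a group is assumed to vary like the others. Partners called higher numbered 4, 1, 4 and 22, and those called lower 7, 10, 12 and 34, or 11 without the expression filter. The cause was not tested.

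Of 24 named genes, results kept their side of the call rule in 279 comparisons with an alternative. *Ccdc137* lost its call with limma on log2(TPM + 1), at 0.96, and *Slc16a3* and *Pde6g* gained a call in 5 comparisons. The highest median of 1.61 in windows of 0.5 Mb was 1.56 in windows of 1 Mb.

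Same-numbered libraries deviated together (correlation across genes 0.349), but with 2 pairs the pairing is not established. With the replicate number as a block, edgeR called 34 of the genes higher and 1 lower, with a median of 1.42, 1461 and 1956 of all genes, 26 and 0 other genes of the interval, 2 and 3 genes before *Tbc1d16*, and 4 and 9 partners. Depth limits *Tspan10*, *Card14*, *Fscn2*, *Pde6g*, *Rab40b* and *Npb*, whose counts were low in PD100 cells.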
